A study of Mus musculus with 6 samples.

Results

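The genes described here encode 9 transcription factors and cofactors that build the thymus from the pharyngeal pouches: Foxn1, Pax1, Pax9, Six4, Eya1, Hoxa3, Tbx1, Gcm2 and Trp63. They were chosen by name from the deposited expression table, and each had 1 entry of its own among the 22513 entries. RNA was sequenced from fetal thymic lobes of C57BL/6 mice kept in fetal thymus organ culture (FTOC). The lobes were first cultured for 4 days with 2′-deoxyguanosine (2-DG), which is used to deplete haematopoietic cells, and were then left unstimulated or given RANKL, the ligand of RANK that induces maturation of medullary thymic epithelial cells (mTECs), for 4 days. WT lobes were compared with lobes of Jmjd6-/- embryos, which lack the nuclear dioxygenase Jmjd6 in every cell and not only in the epithelium. There was 1 library each of unstimulated WT and unstimulated Jmjd6-/- stroma, and 2 libraries each of RANKL-stimulated WT and RANKL-stimulated Jmjd6-/- stroma. All 6 libraries had been through the 2-DG culture, and none came from freshly isolated thymus.

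In the embryo, the thymus and the parathyroid gland arise from a common primordium in the endoderm of the third pharyngeal pouch. Hoxa3, Pax1, Pax9, and the partners Eya1 and Six4 act in the pouch to form and keep this primordium, and Tbx1 is needed earlier for the pharyngeal arches and pouches themselves. The primordium then splits into a Gcm2-expressing parathyroid domain and a Foxn1-expressing thymus domain. Foxn1 drives the differentiation of thymic epithelial cells (TECs) in the cortex and the medulla, while p63, encoded by Trp63, maintains the basal, stem-like state of stratified and thymic epithelia. Mutation of Foxn1 causes the athymic nude phenotype.

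The reference sequences around the transcription starts of Pax1, Foxn1 and Gcm2 are shown because these genes are the most abundant of the 9, the one that defines the thymic fate and the least abundant. They come from RefSeq for GRCm38.p6, the assembly also known as mm10, and run from 250 bases before to 50 bases after the start, 5′ to 3′ on the strand of the gene, with each CG dinucleotide in capitals. The Pax1 window is chr2:147364744-147365043 on the plus strand, Foxn1 is chr11:78386559-78386858 on the minus strand and Gcm2 is chr13:41109939-41110238 on the minus strand.
Pax1: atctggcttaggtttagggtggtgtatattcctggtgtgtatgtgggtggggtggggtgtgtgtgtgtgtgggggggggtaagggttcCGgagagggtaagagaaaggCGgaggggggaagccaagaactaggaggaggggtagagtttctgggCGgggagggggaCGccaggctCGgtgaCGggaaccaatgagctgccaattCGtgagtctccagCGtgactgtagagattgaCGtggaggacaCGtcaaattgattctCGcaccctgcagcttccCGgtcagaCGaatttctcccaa
Foxn1: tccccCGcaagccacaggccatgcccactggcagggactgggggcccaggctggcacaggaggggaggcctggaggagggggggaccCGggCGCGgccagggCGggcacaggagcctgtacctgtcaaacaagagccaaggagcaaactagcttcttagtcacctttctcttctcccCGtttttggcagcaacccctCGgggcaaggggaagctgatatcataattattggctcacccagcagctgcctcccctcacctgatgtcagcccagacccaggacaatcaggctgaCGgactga
Gcm2: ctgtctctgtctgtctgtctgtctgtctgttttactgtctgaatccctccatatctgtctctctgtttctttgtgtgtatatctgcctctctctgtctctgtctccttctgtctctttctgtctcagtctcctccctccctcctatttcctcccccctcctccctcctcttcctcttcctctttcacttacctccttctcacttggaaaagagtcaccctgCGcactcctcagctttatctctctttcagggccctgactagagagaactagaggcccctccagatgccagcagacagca
CG reads the same on both strands, and 94.6% of the 32851 windows in the reference hold at least 1. The Pax1 window held 13 CG and the Foxn1 window 8, while the Gcm2 window held 1, a number as low in 14.1% of all windows. The median over all windows was 7. The number of CG did not follow expression across the factors, as the window of Hoxa3, less expressed than Pax1, held 20. The windows of the weakly expressed Tbx1 held 26 and 16. Their starts (18588899 and 18590671, minus strand) lie upstream of the authors' Tbx1 entry, which ends at 18586969, so they are not at the start of that entry. A window was found for 7 of the 9 genes. Eya1 and Trp63 had none.

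Expression is given in FPKM, the number of fragments scaled for transcript length and for the fragments mapped in the library, which the authors computed and deposited, so that levels can be set side by side between genes of different length. Depth was estimated from the size of the steps separating low values and lay between 15300000 and 31300000 fragments per library, and fragment numbers given below rest on this estimate. Jmjd6 had 25.9 to 32.5 FPKM in the 3 WT libraries and 1.32 to 1.96 in the 3 Jmjd6-/- libraries. Aire, the transcriptional regulator of mature mTECs, had 0.142 and 0.473 FPKM without and 67.1 to 79.7 with RANKL. The 8 epithelial markers (such as Epcam and Krt8) summed to 5580 to 8320 FPKM, against 0.470 to 2.18 for the 6 T-cell markers, of which Cd3e was at 0 in 5 of 6 libraries. The 5 macrophage markers summed to 60.9 to 89.1 FPKM, with Adgre1 at 12.7 to 34.7 FPKM, so markers of this haematopoietic lineage were present in every library. With RANKL, Adgre1 and Csf1r were lower and Mrc1 was higher by limma, and the part of these cells in the values of the factors was not tested. Thyroid and skeletal muscle markers summed to at most 1.16 FPKM. The RANKL-stimulated WT libraries stood apart from each other. Over the 12587 genes that averaged 1 FPKM or more, their median absolute log2 difference was 0.276, against 0.0767 between the Jmjd6-/- libraries. The sample labels call these pairs technical duplicates and the study calls them samples, so p-values may measure technical spread alone.

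Pax1 was by far the most abundant of the 9 genes, and 7 of the 9 were above 8 FPKM in every library, while Tbx1 and Gcm2 stayed under 2 FPKM throughout. Pax1 averaged 590 FPKM over the 6 libraries, rank 123 among all entries and 6.05 times the mean of Foxn1. Foxn1 (97.5 FPKM) and Trp63 (95.5 FPKM) came next with overlapping ranges, and Foxn1 was the higher of the 2 in 3 of 6 libraries. Pax9 (58.3 FPKM), Eya1 (32.3), Hoxa3 (16.4) and Six4 (11.6) followed, each below its upper neighbour in all 6 libraries with no overlap of their ranges. Six4 was 13.9 times the mean of Tbx1 (0.835 FPKM). Tbx1 lay above Gcm2 (0.221 FPKM) in all 6 libraries, although their ranges overlapped.

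**Figure D1:**
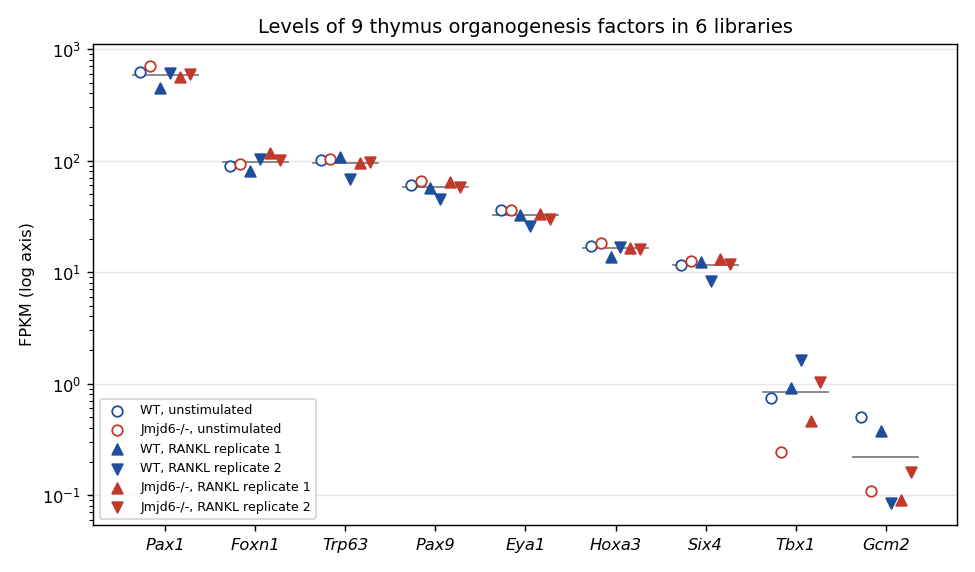
FPKM (log axis) of the 9 factors in each of the 6 libraries, ordered by their mean, which is the grey line. Open circles are unstimulated and triangles RANKL-stimulated libraries, WT in blue and Jmjd6-/- in red. Pax1 sits between 446 and 706 FPKM, and Tbx1 and Gcm2 are the only factors under 2 FPKM.

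The patterning factors of the pouch were led by the paired-box genes. Pax1 (XLOC_010928, chromosome 2, 147364994 to 147375048, plus strand of mm10) had 621 and 706 FPKM without RANKL in WT and Jmjd6-/- stroma, 446 and 611 with RANKL in WT, and 565 and 591 with RANKL in Jmjd6-/- stroma. All 4 stimulated libraries were below both unstimulated ones, and the lowest was WT replicate 1. Pax9 (XLOC_004091, chromosome 12, 56695639 to 56711230, plus strand) had 60.3 and 65.5 FPKM in unstimulated WT and Jmjd6-/- stroma, 56.9 and 45.0 with RANKL in WT, and 64.5 and 57.5 with RANKL in Jmjd6-/- stroma. Its 2 stimulated Jmjd6-/- libraries were above both stimulated WT libraries.

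Eya1 encodes a phosphatase and coactivator that works with homeobox proteins such as Six4. Eya1 (XLOC_000637, chromosome 1, 14168958 to 14310199, minus strand) had 36.2 FPKM in both unstimulated genotypes, 32.6 and 25.9 with RANKL in WT, and 33.1 and 29.7 with RANKL in Jmjd6-/- stroma. Every stimulated library was below the unstimulated ones. Six4 (XLOC_004491, chromosome 12, 73100259 to 73113245, minus strand), a homeobox partner of Eya1, had 11.6 and 12.7 FPKM without RANKL in WT and Jmjd6-/- stroma, 12.3 and 8.37 with RANKL in WT, and 13.1 and 11.9 with RANKL in Jmjd6-/- stroma. WT replicate 2 was the lowest library of both genes.

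Hoxa3 (XLOC_016644), the homeobox gene whose loss leaves mice without a thymus, had 17.1 and 18.3 FPKM in unstimulated WT and Jmjd6-/- stroma, 13.6 and 16.7 with RANKL in WT, and 16.5 and 16.2 with RANKL in Jmjd6-/- stroma. The authors' assembly gives Hoxa3, Hoxa4, Hoxa5 and Hoxa6 the same locus (chromosome 6, 52169062 to 52213597, minus strand), so how well their values are separated is not known. From Hoxa2 onwards along the Hoxa cluster, expression was confined to the 3′ genes in these libraries, apart from traces. Hoxa2 averaged 25.2 FPKM and Hoxa4 2.60, while Hoxa5 and Hoxa7 had 0.157 and 0.215. Hoxa6 and Hoxa9 were at 0 in all 6 libraries, and Hoxa10, Hoxa11 and Hoxa13 did not exceed 0.0791 FPKM in any.

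**Figure D2:**
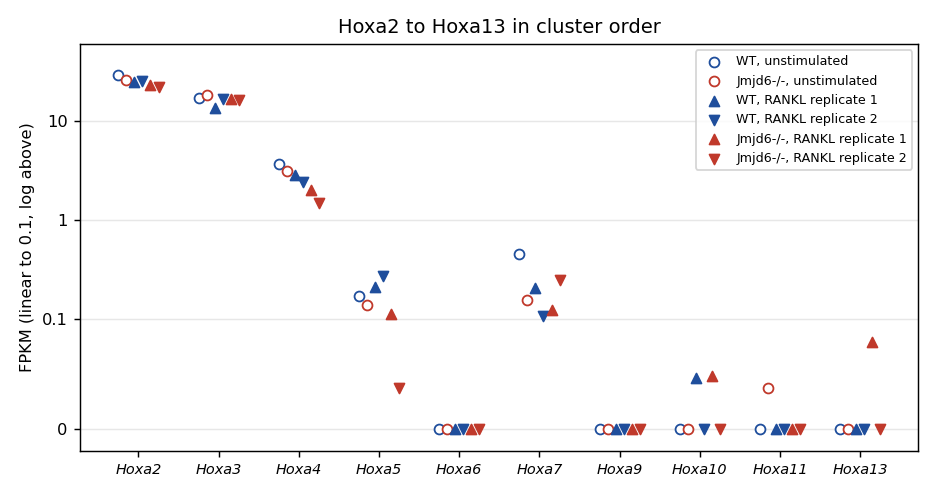
FPKM (linear up to 0.1 and log above) of the Hoxa genes from Hoxa2 to Hoxa13 in cluster order in the 6 libraries, with the symbols of the plot of levels. Hoxa2 and Hoxa3 are above 13 FPKM in every library, and no gene from Hoxa5 onwards exceeds 0.452 FPKM.

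Tbx1 (XLOC_007593, chromosome 16, 18581713 to 18586969, minus strand), a T-box gene of the pharyngeal apparatus, had 0.738 and 0.245 FPKM without RANKL in WT and Jmjd6-/- stroma, 0.920 and 1.62 with RANKL in WT, and 0.465 and 1.03 with RANKL in Jmjd6-/- stroma. Within each genotype both stimulated libraries were above the unstimulated one. The lowest value stands for about 9.4 fragments and the highest for about 58.3. The 2 stimulated genotypes overlapped.

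The factors of organ fate were far apart. Foxn1 (XLOC_003532, chromosome 11, 78358288 to 78386558, minus strand) had 89.5 and 94.0 FPKM in unstimulated WT and Jmjd6-/- stroma, 80.8 and 103 with RANKL in WT, and 117 and 101 with RANKL in Jmjd6-/- stroma. Neither stimulation nor genotype separated its libraries. Gcm2 (XLOC_005245, chromosome 13, 41101427 to 41109988, minus strand) had 0.502 and 0.110 FPKM without RANKL in WT and Jmjd6-/- stroma, 0.378 and 0.0850 with RANKL in WT, and 0.0910 and 0.160 with RANKL in Jmjd6-/- stroma. In fragments these are about 45.9 in unstimulated WT, 32.0 in stimulated WT replicate 1 and 3.8 to 9.3 in the other 4 libraries. Of the 4 parathyroid markers, Pth, the hormone gene of the parathyroid gland, was detected in every library, with 58.8 FPKM in unstimulated WT, 12.2 in unstimulated Jmjd6-/-, 33.8 and 27.9 in stimulated WT, and 17.9 and 20.3 in stimulated Jmjd6-/- stroma. The summed parathyroid markers had 85.6 FPKM in unstimulated WT, 58.0 to 59.4 in stimulated WT and 47.9 to 53.2 in Jmjd6-/- stroma. The part of Pth-expressing cells in the Gcm2 values was not tested.

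Trp63 (XLOC_007308, chromosome 16, 25683765 to 25892088, plus strand) had 101 and 103 FPKM in unstimulated WT and Jmjd6-/- stroma, 108 and 68.6 with RANKL in WT, and 95.6 and 96.3 with RANKL in Jmjd6-/- stroma. The stimulated WT libraries were both its highest and its lowest value, with the Jmjd6-/- libraries between them.

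Compared with other genes, the 7 well-expressed factors had ordinary ranges over the libraries. The study selected genes whose largest FPKM exceeded the smallest more than 3-fold, with 0.1 added to both, and 14.3% of all entries passed this rule. Tbx1 (4.98-fold) and Gcm2 (3.25-fold) passed it, and both fell under it with 1 added in place of 0.1. The other 7 factors had a range of 1.34-fold for Hoxa3 to 1.58-fold for Pax1. Among all genes averaging 1 FPKM or more, the median range was 1.49-fold, 57.9% had a range no wider than that of Pax1, and 10.6% exceeded 3-fold.

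The effect of RANKL was tested over both genotypes, 4 libraries against 2, to ask whether stimulation moves the organogenesis factors as it moves mTEC genes. By limma on log2(FPKM + 0.1) with Benjamini-Hochberg adjustment over 15894 genes, 0 of the 9 factors passed an adjusted p of 0.05, while 14.7% of all genes did. One factor, Tbx1, had an unadjusted p under 0.05. The fitted change was below 0 in 7 of the 9 factors, and their median log2 change was -0.17, against -0.02 over all genes tested. In these whole-lobe samples, fewer cells of a type and less RNA per cell cannot be told apart.

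Eya1 and Pax1 had the lowest fitted changes of the 7 well-expressed factors, and neither passed. The log2 change of Eya1 was -0.26 (SE 0.117, adjusted p = 0.189 by limma), with a 95% interval from -0.54 to 0.02. That of Pax1 was -0.27 (SE 0.139, adjusted p = 0.246 by limma), with an interval from -0.60 to 0.06. Hoxa3 was at -0.17 (SE 0.109, adjusted p = 0.343 by limma). In these 3 genes the stimulated libraries did not overlap the unstimulated ones, which was also the case in 37.4% of all genes. The remaining intervals of the well-expressed factors included 0 as well. They ran from -0.18 to 0.42 for Foxn1, -0.46 to 0.10 for Pax9, -0.50 to 0.29 for Six4 and -0.58 to 0.24 for Trp63, so changes of that size remain within them.

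Tbx1 had the largest fitted change of the 9, 0.93 on the log2 scale (SE 0.375, adjusted p = 0.153 by limma), with an interval from 0.04 to 1.83. Its mean with RANKL was 1.72 times the unstimulated value in WT and 3.05 times in Jmjd6-/- stroma. Gcm2 was at -0.47 with an interval from -1.63 to 0.70, too wide at its depth to show a change of that size.

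**Figure D3:**
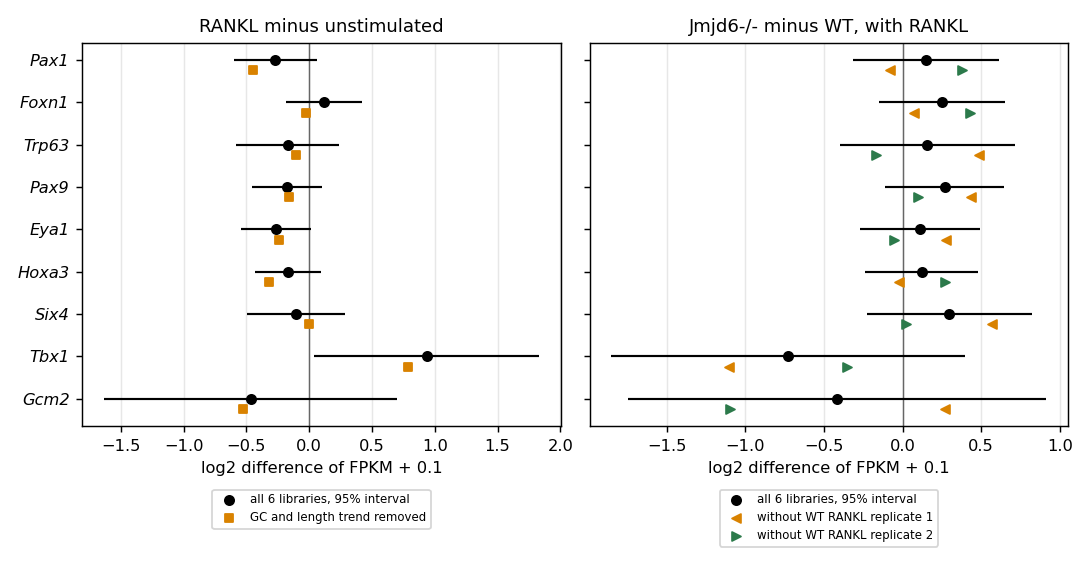
Log2 differences of FPKM + 0.1 for the 9 factors with RANKL (left) and between the stimulated genotypes (right), with 95% intervals from limma as lines. On the left, squares give the value with the GC and length trend removed. On the right, triangles give the value without WT RANKL replicate 1 or 2, and those of Trp63 lie on opposite sides of 0, at 0.48 and -0.17.

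The genotypes were compared with RANKL, 2 libraries against 2, where an exact permutation test gives no two-sided p under 0.333 and limma was used instead. Again 0 of 9 factors passed, against 2.34% of all genes, and none had an unadjusted p under 0.05. The fitted log2 ratio of Jmjd6-/- to WT was above 0 in 7 of the 9 factors, with a median of 0.15 against 0.01 over all genes. Pax9 was the only factor without overlap between the genotypes, which 50.7% of all genes also showed.

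Foxn1 had 91.9 ± 15.8 FPKM (SD, n = 2) in stimulated WT and 109 ± 11.3 (SD, n = 2) in stimulated Jmjd6-/- stroma. The log2 ratio was 0.25 (SE 0.160, adjusted p = 0.490 by limma), with an interval from -0.15 to 0.65. Pax9 had 51.0 ± 8.42 and 61.0 ± 4.95 FPKM (SD, n = 2 each) and a log2 ratio of 0.27 (SE 0.152, adjusted p = 0.433 by limma). For Pax1, 528 ± 117 and 578 ± 18.8 FPKM (SD, n = 2 each) gave a ratio of 0.15, with an interval from -0.32 to 0.61. These differences were within the spread between the WT replicates.

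The intervals of Eya1 (-0.27 to 0.49), Hoxa3 (-0.24 to 0.48), Six4 (-0.23 to 0.82) and Trp63 (-0.40 to 0.71) likewise included 0. Tbx1 was at -0.73 (adjusted p = 0.472 by limma) with an interval from -1.85 to 0.39, and Gcm2 at -0.42 with an interval from -1.75 to 0.91. Without stimulation there was 1 library per genotype and no test. There the ratio of Jmjd6-/- to WT was 1.00 for Eya1, 1.02 for Trp63, 1.05 for Foxn1, 1.07 for Hoxa3, 1.09 for Pax9, 1.10 for Six4 and 1.14 for Pax1, while it was 0.331 for Tbx1 and 0.219 for Gcm2.

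Markers of other cell types differed between the genotypes beside these values. The 8 mesenchyme markers summed to 558 to 624 FPKM in stimulated WT and 350 to 368 in stimulated Jmjd6-/- stroma, and to 566 and 264 without stimulation. All 8 had a fitted ratio below 0 under RANKL, and 1 of them, the collagen gene Col3a1, passed the test, with 245 and 235 FPKM in stimulated WT and 125 and 115 in stimulated Jmjd6-/- stroma (adjusted p = 0.0280 by limma). The 5 endothelial markers summed to 12.3 to 12.5 FPKM in stimulated WT and 4.10 to 4.62 in stimulated Jmjd6-/- stroma, and Pecam1 and Cdh5 passed. Over all genes, 1.82% were lower in Jmjd6-/- stroma at this threshold. Without WT replicate 1, 3 mesenchyme and 3 endothelial markers were lower, against 11.6% of all genes. Without WT replicate 2 they were 5 and 4, against 6.53%, and with the GC and length trend removed 4 and 3, against 4.26%. The part of these cells in the values of the factors was not tested.

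A difference between the genotypes in the response to RANKL was called for 0 of the 9 factors and for 0% of all genes by limma, with 664 genes and none of the factors at an unadjusted p under 0.05. The intervals ran from -0.51 to 0.87 for Foxn1 and from -0.84 to 0.77 for Pax1, so differences of that size remain within the intervals.

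The spread between the stimulated WT libraries followed the GC content of the transcripts, and the sign of the difference in the 9 factors went with it. All 4 factors with a GC content over 50% (Foxn1, Pax1, Hoxa3 and Tbx1) were higher in WT replicate 2, and all 5 with less (Pax9, Six4, Eya1, Gcm2 and Trp63) were higher in replicate 1. The log2 difference of replicate 2 from replicate 1 was 0.45 for Pax1 (57.1% GC) and -0.65 for Trp63 (44.2% GC). It was widest for Gcm2 (49.0% GC), at -1.37, which rests on about 32.0 and 3.8 fragments. Over all genes the median difference ran from -0.414 to 0.279 across 10 groups of genes ordered by GC content. The groups with a median GC content of 43.2%, 45.4% and 49.1% were at -0.287, -0.225 and -0.0762. The differences of Trp63 and Gcm2 were thus larger than the medians of genes of like GC content. Between the Jmjd6-/- replicates, the medians of all 10 groups stayed within 0.0187 of 0. The 9 factors ran from -0.212 for Foxn1 to 0.996 for Tbx1 there, with Gcm2 at 0.444 and Trp63 nearest to 0 at 0.01. For Tbx1 this difference was larger than that between the WT replicates, 0.750. The cause of the trend was not tested.

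**Figure D4:**
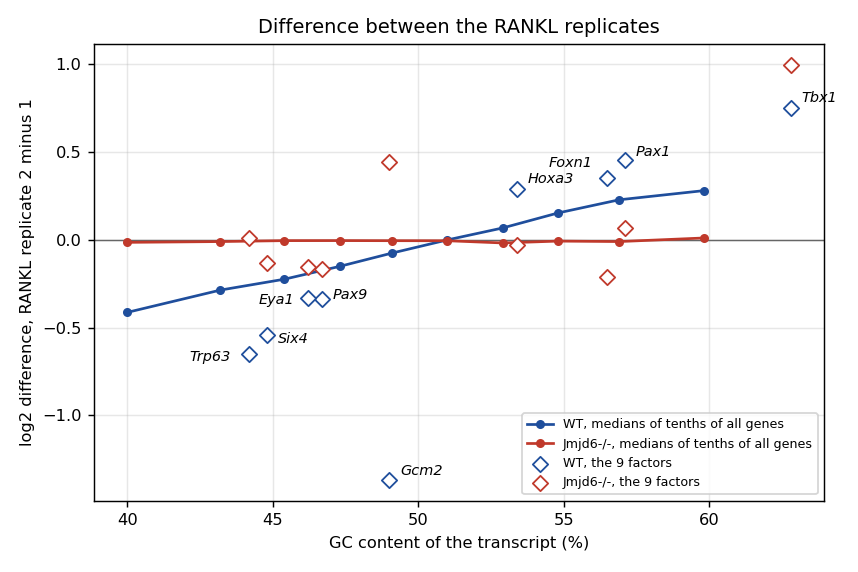
Log2 difference of RANKL replicate 2 from replicate 1 against GC content of the transcript, for WT (blue) and Jmjd6-/- (red). Lines join medians of 10 groups of all genes, ordered by GC content, and diamonds are the 9 factors. The WT line rises from -0.414 to 0.279. The WT diamonds lie above 0 over 50% GC and below 0 under it, with Gcm2 the lowest at -1.37.

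Calls on several factors depended on these libraries. Without WT replicate 1, Six4 (log2 ratio 0.57, adjusted p = 0.0356 by limma) and Trp63 (0.48, adjusted p = 0.0291) were higher in Jmjd6-/- stroma, as were 15.4% of all genes. Without WT replicate 2, the ratio of Trp63 was -0.17, that of Six4 was 0.024, and Pax1 was called instead (0.37, adjusted p = 0.0460), as were 6.32% of all genes. Pax1 was at -0.08 without replicate 1. With RANKL, Pax1 was lower without WT replicate 2 (-0.37, adjusted p = 0.0303), beside 9.54% of all genes. When a smooth trend in GC content and transcript length was taken out of every library (a choice made after the data had been seen), Pax1 (-0.45, adjusted p = 0.0134 by limma), Hoxa3 (-0.32, adjusted p = 0.0221) and Eya1 (-0.24, adjusted p = 0.0376) were lower with RANKL. In that fit 19.2% of all genes were called lower, so the 3 factors moved with many other genes. Foxn1 was at -0.023 there.

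Foxn1 is needed for the expression of many genes of the thymic epithelium. With RANKL, 3 of 9 such genes fell, against 4.11% of all genes, and all 9 fitted changes were below 0 with a median of -0.44. The number that fell was 4 without WT replicate 2, against 9.54% of all genes. It was also 4 without WT replicate 1, where 22.5% of all genes were called and 13.6% were called higher. With the GC and length trend removed it was 6, against 19.2% of all genes. Cxcl12, a chemokine that draws thymocyte precursors, had 1110 and 985 FPKM without and 672 to 710 with RANKL (log2 -0.61, adjusted p = 0.00868 by limma). Prss16, a serine protease of cortical TECs (cTECs), fell from 4345 and 3785 to between 2506 and 2925 FPKM (-0.59, adjusted p = 0.0352), and Cd83 from 400 and 370 to between 270 and 319 (-0.42, adjusted p = 0.0338). Their stimulated libraries did not overlap the unstimulated ones, which was also the case in 37.4% of all genes. Psmb11, the thymoproteasome subunit, at -0.44 (adjusted p = 0.0981), the chemokine Ccl25 at -0.36 and the Notch ligand Dll4 at -0.28 did not pass. With the GC and length trend removed, 1 of the 9 was higher in stimulated Jmjd6-/- than in stimulated WT stroma, against 2.45% of all genes. In the main fit none of the 9 passed between the stimulated genotypes, against 2.34% of all genes, with a median log2 ratio of -0.01. The largest ratio in that fit was that of Kitl, stem cell factor, at 0.85 (adjusted p = 0.0810 by limma). Kitl had 48.0 and 33.8 FPKM in WT and 72.0 and 72.9 in Jmjd6-/- stroma.

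The list is not separate from the make-up of the stroma, as 7 of its 9 genes also serve as cTEC markers. The 8 cTEC markers summed to 10800 to 12400 FPKM without and 7840 to 9400 with RANKL, and 4 of them fell, against 4.11% of all genes. The 7 measured mTEC markers summed to 30.3 to 37.4 FPKM without and 187 to 208 with RANKL, and 6 of them rose, against 10.5% of all genes. The part of these cell types in the values of Foxn1 and its linked genes was not tested.

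Of the 15 p63-linked genes of the basal epithelium, 3 rose with RANKL, against 10.5% of all genes, and 1 fell, against 4.11%. Without WT replicate 1, 5 rose, against 13.6% of all genes, and with the GC and length trend removed 4 fell, against 19.2%. Krt14, a basal keratin, rose from 2.98 and 7.67 FPKM to between 15.4 and 41.8 (log2 2.49, adjusted p = 0.000357 by limma). Col17a1, a hemidesmosome collagen, rose from 0.109 and 0.155 to between 0.4999 and 1.34 FPKM (1.91, adjusted p = 0.0145), and Itgb4, the integrin of the same structure, from 6.80 and 7.63 to between 11.7 and 13.1 (0.76, adjusted p = 0.00557). Lamb3, a laminin chain of the basement membrane, fell (-0.64, adjusted p = 0.00654). The median of the list was 0.00, while Trp63 itself was at -0.17.

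Between the stimulated genotypes, 13 of the 15 p63-linked genes had a ratio above 0, with a median of 0.55 against 0.01 over all genes. One of them passed, against 0.516% of all genes higher in Jmjd6-/- stroma. This was Perp, a desmosome component and p63 target, with 291 and 313 FPKM in WT and 682 and 692 in Jmjd6-/- stroma (1.19, adjusted p = 0.0280 by limma). Without stimulation Perp had 402 FPKM in WT and 751 in Jmjd6-/- stroma. Without the trend in GC content and length 6 of the 15 were higher in Jmjd6-/- stroma, against 2.45% of all genes, and Trp63 was at 0.06. The number higher was 11 of 15 without WT replicate 1, against 15.4% of all genes, and 7 of 15 without WT replicate 2, against 6.32%. Krt5, Krt14 and Cdh3 are also on the list of epithelial markers, whose 8 genes summed to 5580 and 7940 FPKM in stimulated WT and 7870 and 7960 in stimulated Jmjd6-/- stroma.

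**Figure D5:**
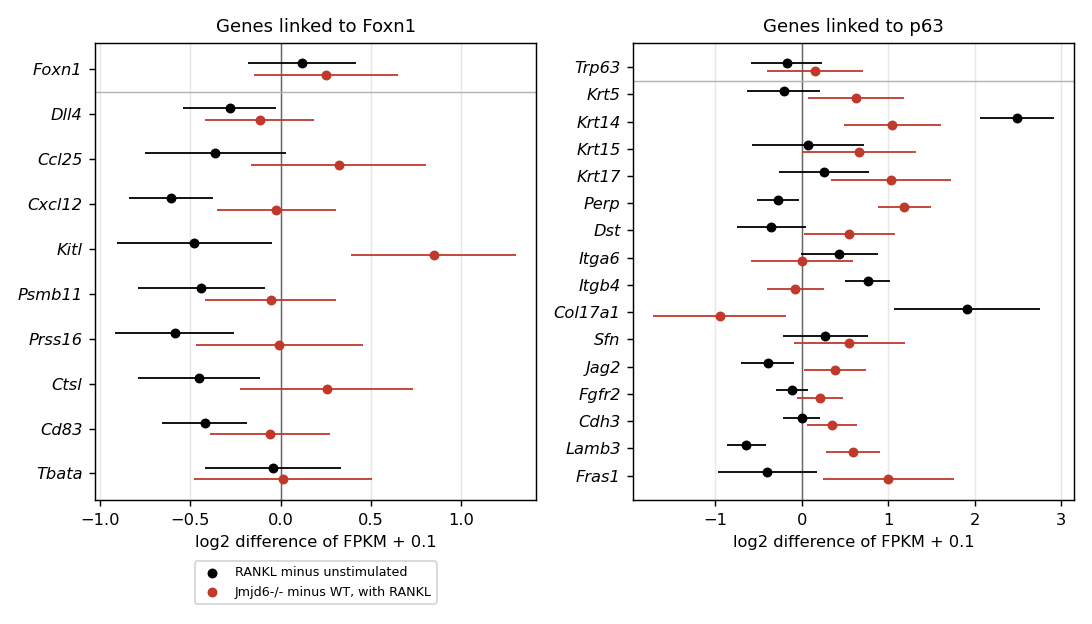
Log2 differences of FPKM + 0.1 with 95% intervals from limma for Foxn1 and 9 genes that need it (left) and for Trp63 and 15 p63-linked genes (right), with RANKL in black and between the stimulated genotypes in red. All 9 black points under Foxn1 lie below 0, and 13 of the 15 red points under Trp63 lie above 0.

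Other genes that pattern the pouch gave 1 call. Of 17 listed, 14 passed the filter on low values, and Nog, an inhibitor of BMP signalling, was the one called with RANKL (log2 1.40, adjusted p = 0.0335 by limma), at 0.0579 and 0 FPKM without and 0.1003 to 0.383 with RANKL. This 1 call of 14 stands against 10.5% of all genes higher with RANKL. None passed between genotypes, against 2.34% of all genes. Without WT replicate 1, 5 of the list were called between genotypes (2 higher and 3 lower in Jmjd6-/- stroma), against 27.0% of all genes, and without WT replicate 2 1 was called, against 12.8%. Fgf8, Shh and Foxi3 were at 0 in both unstimulated libraries and reached at most 0.313 FPKM. Isl1, a homeobox gene of the pharyngeal region, had 40.3 to 45.8 FPKM.

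Family relatives of the factors were either well expressed or nearly absent. Six2 (66.5 to 83.7 FPKM) was above Six4 in every library, Eya2 (67.8 to 85.9 FPKM) above Eya1, and Trp53 (60.7 to 72.6 FPKM) was the one expressed relative of Trp63, as Trp73 stayed at or below 0.189 FPKM. Pax2, Pax3, Pax6, Pax7 and Pax8 did not exceed 0.194 FPKM in any library, so Pax1 and Pax9 were the expressed members among the Pax genes listed. Of the 20 relatives tested, 1 was called, Tbx3, a T-box gene that rose with RANKL from 0.812 and 0.478 FPKM to between 1.40 and 1.61 (1.17, adjusted p = 0.0135 by limma). Its relative Tbx2 was at 0.03. The 1 call of 20 stands against 10.5% of all genes higher with RANKL. With WT replicate 1 left out 4 relatives were called (1 higher and 3 lower), against 22.5% of all genes, and with WT replicate 2 left out also 4, against 23.4%. With the GC and length trend removed 6 were called (1 higher and 5 lower), against 31.2%.

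For each of the 7 factors averaging 1 FPKM or more, the 3 genes closest to it over the 6 libraries were found by Pearson's r of log2(FPKM + 0.1). These 21 values of r ran from 0.971 to 1.0 and are the highest among 12587 genes over only 6 libraries, which all genes share. They describe likeness in these libraries and nothing more. The closest were Tfe3, Bcar1 and Clptm1 to Foxn1, Pithd1, Ppp2cb and Cript to Pax1, and Mblac2, Zzef1 and the shared entry of Ddi2 and Rsc1a1 to Pax9. Those closest to Six4 were Lig4, Insig2 and Fzd6, and those closest to Eya1 were Gosr1, Zfp174 and Vangl1. Tgif1, Capzb and Prss36 were closest to Hoxa3, and Xpnpep3, L3mbtl3 and Tmx3 to Trp63.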

How the data were processed

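The data were FPKM values per gene for 6 libraries, which the authors had made from poly-A RNA (TruSeq kit, 101-base paired-end reads) with TopHat2 2.0.10 against mm10 and Cufflinks 2.1.1 (multi-mapped reads corrected, library set as stranded), and deposited without scaling to a common total (501418 to 564985 FPKM per library). No strand-keeping step of the library preparation is named, and the read filter is not given in the sources used here. Groups were taken from the sample titles, since the treatment field names RANKL for every sample.

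The factors and gene lists were chosen with earlier results of these data known. All 9 factors are named. From the lists, some of the genes past an adjusted p of 0.05 were named (at most 4 per list and comparison) together with highly expressed markers. Not every gene that passed is named, mainly among the cell type markers, so a gene left unnamed may have passed. The other genes of the lists given with values (Psmb11, Ccl25, Dll4, Kitl, Fgf8, Shh, Foxi3, Isl1 and the relatives) were chosen after their values were seen.

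For the tests, log2(FPKM + 0.1) of genes averaging 0.1 FPKM or more was fitted with limma 3.58.1 (R 4.3.3), using a trend of variance on mean and Benjamini-Hochberg adjusted two-sided p-values at 0.05. RANKL was tested with genotype as a term, and genotype and its interaction with RANKL in a fit of 4 condition means, where the unstimulated libraries had no replicates and were assumed to vary like the stimulated ones. Transcript length and GC content came from GENCODE M21, with values for 99.2% of genes averaging 1 FPKM or more. Depth was estimated from values under 0.15 FPKM and transcript length less 150 bases, and is approximate. Replicate numbers were not treated as pairs in the main fits. Deviations of same-numbered libraries correlated at -0.0778. This cannot settle whether they are paired, since the WT difference followed GC content and the Jmjd6-/- difference did not. Alternatives were constants of 1 and 0.01, other filters, no trend, 2 scalings, leaving out each stimulated library, the replicate number as a term, the stimulated libraries alone and, chosen after seeing the data, removal of a smooth trend in GC content and length. Scaling moved the median of all genes by less than 0.1 on the log2 scale. Protein sequences were not used here, and some genes of the lists are counted but not reported by name.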

Additional observations from a re-analysis of the deposited data

How the results depend on the processing

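No factor was called by limma under the other constants, filters, scalings, the fit without the trend or the fit of the stimulated libraries alone. Over the fits that left out 1 stimulated library, 0 to 1 factors were called with RANKL and 0 to 2 between genotypes, and removal of the GC and length trend called 3 with RANKL. The genes called with RANKL were 1087 without the filter, 4961 without the GC and length trend and 1170 to 3675 with a library left out. Between genotypes they were 241 with a constant of 0.01, 2 without the filter, 231 with a filter at 1 FPKM, 1066 without the GC and length trend and 104 to 4264 with a library left out. For the difference in response they were 176 without the filter, 1 without the GC and length trend and 0 to 5 with a library left out. The replicate number as a term, whose pairing of the libraries is not settled, called 1477 genes between genotypes and 94 in the difference of response and no factor. With 1 added, 0 factors and 855 entries passed the 3-fold range, and 6614 entries with 0.01 added. The causes were not tested.

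Directions turned for several factors. As 0 of the 9 factors were called with all libraries, there was no called direction that could turn. Without the GC and length trend Foxn1 was at -0.023 with RANKL. Without WT replicate 1 and 2 in turn, the range was -0.21 to 0.023 for Six4 with RANKL. Between genotypes it was -0.080 to 0.37 for Pax1, -0.055 to 0.28 for Eya1, -0.024 to 0.27 for Hoxa3, -1.10 to 0.27 for Gcm2 and -0.17 to 0.48 for Trp63. In the difference of response it was -0.27 to 0.19 for Pax1, -0.022 to 0.32 for Pax9, -0.11 to 0.44 for Six4, -0.056 to 0.28 for Eya1, -0.13 to 0.17 for Hoxa3 and -0.19 to 0.46 for Trp63, and Hoxa3 was at -0.0046 with equal totals and -0.0088 with median-ratio scaling. Depth limits Gcm2 and Tbx1 most, at about 3.8 and 9.4 fragments in their lowest libraries, and the lack of unstimulated replicates limits every effect of RANKL.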

Other observations

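The gene AI646519 (chromosome 2, 147361543 to 147362793 of mm10), singled out after its values were seen, lies just before the authors' Pax1 entry on the minus strand. It had 36.3 and 37.5 FPKM without RANKL in WT and Jmjd6-/- stroma, 24.3 and 36.2 with RANKL in WT, and 30.7 and 35.3 with RANKL in Jmjd6-/- stroma. Its lowest library was WT RANKL replicate 1, as for Pax1. In GENCODE M21 the Pax1 gene starts at 147361925 and so overlaps it, and no strand-keeping step of the library preparation is named. How well their reads are separated was not tested.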
